A study of Homo sapiens with 9 samples.

Results

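The E2F family was examined together with RB1 and TFDP1, as 10 genes picked by exact match of the gene name (E2F1 to E2F8, RB1 and TFDP1) out of 58174 genes listed. All 10 were found in both tables and all 10 passed the filter on low values in every comparison. The cells were ES-2, an established cell line derived from ovarian cancer, transfected with a control siRNA (siC), a pool of siRNAs against the RNA-binding protein IGF2BP1 (siIGF2BP1) or a pool directed at the transcription factor SRF (siSRF). Cells were harvested 72 h after transfection, and rRNA-depleted total RNA of 3 libraries per condition was sequenced. The comparisons ask how depletion of the RNA-binding protein, and of the transcription factor whose mRNA falls with it, altered the abundance of E2F mRNAs, and how activating compare with repressing E2F genes.

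E2F proteins bind promoters of genes required for DNA synthesis and cell cycle entry, mostly as dimers with a DP protein such as TFDP1. E2F1, E2F2 and E2F3 are classed as activators that RB1, the retinoblastoma protein, binds and silences until cyclin-dependent kinases phosphorylate it. E2F4 and E2F5 repress with the pocket proteins of the RB family, E2F6 represses with polycomb proteins and without RB1, and the atypical E2F7 and E2F8 repress without a DP partner and are themselves products of E2F-driven transcription.

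Both targeted mRNAs were reduced in the libraries labelled for them. IGF2BP1 was 12.8 ± 0.689 FPKM in siC, 4.11 ± 0.0846 in siIGF2BP1 and 14.2 ± 0.455 in siSRF (SD, n = 3 each), where FPKM is fragments per length of the gene and depth of the library. SRF was 14.5 ± 1.28 FPKM in siC, 1.47 ± 0.145 in siSRF and 6.01 ± 0.714 in siIGF2BP1, so it was also lower upon IGF2BP1 depletion (log2 fold change -1.26, limma adjusted p = 0.00111). Between 6421764 and 9416175 reads per library fell on genes, and the members had from 39 reads (E2F2, in a siSRF library) to 1278 reads (TFDP1) in a library. Of the epithelial markers, KRT7 (101 FPKM in siC) and KRT18 (43.4 FPKM) were abundant and KRT8 was at 8.81 FPKM, whereas PAX8 (0.155 FPKM) and WT1 (0.118 FPKM) were near 0 and EPCAM and MUC16 were at 0 in siC. These markers moved with the knockdowns: KRT7 was called higher in siIGF2BP1 (152 FPKM, 0.59, adjusted p = 0.00142) and siSRF (127 FPKM, 0.33, adjusted p = 0.00402), KRT8 in siIGF2BP1 (12.9 FPKM, 0.55, adjusted p = 0.00455) and KRT18 in siSRF (81.7 FPKM, 0.91, adjusted p = 3.3e-04). The mesenchymal marker VIM was at 1060 FPKM in siC, 883 in siIGF2BP1 and 853 in siSRF, where it was called lower (-0.31, adjusted p = 0.0091). The leukocyte markers PTPRC and CD3E were at 0 in all 9 libraries. Of the endothelial markers PECAM1 was at 0.313 FPKM in siC, but CDH5 was at 9.38 FPKM in siC, 15.2 in siIGF2BP1 and 7.93 in siSRF. By limma, CDH5 was called higher in siIGF2BP1 than in siC (0.70, adjusted p = 0.00873) and than in siSRF (0.93, adjusted p = 2.4e-04). The part of these markers in the results was not tested.

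The promoters of the 3 activating E2F genes and of E2F6 are shown because E2F1 and E2F2 fell upon SRF depletion, E2F3 did not and E2F6 rose. The sequences are from RefSeq (GRCh38.p14), read on the strand of the gene, and cover the 100 bases before the start site. Capitals mark matches to an E2F motif.
E2F1 promoter (chr20:33686386-33686485, minus strand): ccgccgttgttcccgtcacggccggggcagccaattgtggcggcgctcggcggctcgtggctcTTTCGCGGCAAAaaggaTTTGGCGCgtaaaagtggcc
E2F2 promoter (chr1:23531234-23531333, minus strand): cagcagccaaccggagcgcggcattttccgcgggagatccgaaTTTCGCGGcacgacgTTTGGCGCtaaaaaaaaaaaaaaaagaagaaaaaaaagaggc
E2F3 promoter (chr6:20401779-20401878, plus strand): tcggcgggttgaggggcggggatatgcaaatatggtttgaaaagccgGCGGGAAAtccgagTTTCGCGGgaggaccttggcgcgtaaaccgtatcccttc
E2F6 promoter (chr2:11466162-11466261, minus strand): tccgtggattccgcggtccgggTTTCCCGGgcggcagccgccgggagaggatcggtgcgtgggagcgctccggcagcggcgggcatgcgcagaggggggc

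The E2F motif was searched as the 8 words TTTCCCGC, TTTCCCGG, TTTCGCGC, TTTCGCGG, TTTGCCGC, TTTGCCGG, TTTGGCGC and TTTGGCGG on both strands, from 250 bases before to 50 bases after the start site. Positions are counted from the start site, with -1 as the base before it, and give the first base of the match along the strand of the gene. E2F1 held TTTCGCGG at -37, TTTGCCGC on the opposite strand at -33, which overlaps it, and TTTGGCGC at -20. E2F2 held TTTCGCGG at -57 and TTTGGCGC at -42. E2F3 held TTTCCCGC on the opposite strand at -53 and TTTCGCGG at -39. The activating genes thus shared the word TTTCGCGG, while E2F6 held TTTCCCGG at -183 and -78 and TFDP1 held only TTTCGCGC on the opposite strand, at -120. An E2F motif was found in 6.2% of 35116 promoter windows of the same length, and 2 or more in 0.4%. Of the 9 start sites searched for 8 members, 5 held a match and 4 held 2 or more. The windows of E2F4, E2F7 and RB1 and the second start site of E2F3 were among those without these letters. The RB1 entry lies 172706 bases inside the gene and the second E2F3 entry 1735 bases from the gene start, so they do not describe the first promoter of either gene. Entries on chromosome 8, where E2F5 lies, were left out of the search, so the E2F5 promoter was not examined. E2F8 had no entry. The CHR element, TTTGAA, was found only in the E2F3 window (at -65), against 15.2% of all windows. CCAAT was found in the windows of E2F1, E2F3 and E2F7, against 34.6% of all windows. The CArG box bound by SRF (CC, 6 letters of A or T, GG) was found in 0 of the 9 windows and in 1.3% of all.

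In control cells the DP partner was the most abundant of these mRNAs. TFDP1 was measured at 41.3, 39.7 and 41.2 FPKM in the siC libraries, followed by the repressor gene E2F4 (22.2, 23.6 and 20.7) and the activator gene E2F1 (17.9, 21.1 and 20.9), whose ranges overlapped. E2F7 (mean 15.9 FPKM) and E2F3 (12.4) came next, each apart from its neighbours in the order. RB1 (6.77 FPKM) and E2F6 (6.65) overlapped, and E2F5 (4.99), E2F8 (3.68) and E2F2 (2.93) were the least abundant. The order changed in the knockdowns. E2F1 and E2F4 again overlapped in siIGF2BP1, at 15.7 and 15.2 FPKM. In siSRF, E2F3 (16.3 FPKM) stood beside E2F1 (14.7) and E2F6 (11.6) beside E2F7 (12.0), both pairs with overlapping ranges. FPKM counts all isoforms of a gene together, so the E2F3 and E2F6 isoforms were not told apart.

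**Figure D1:**
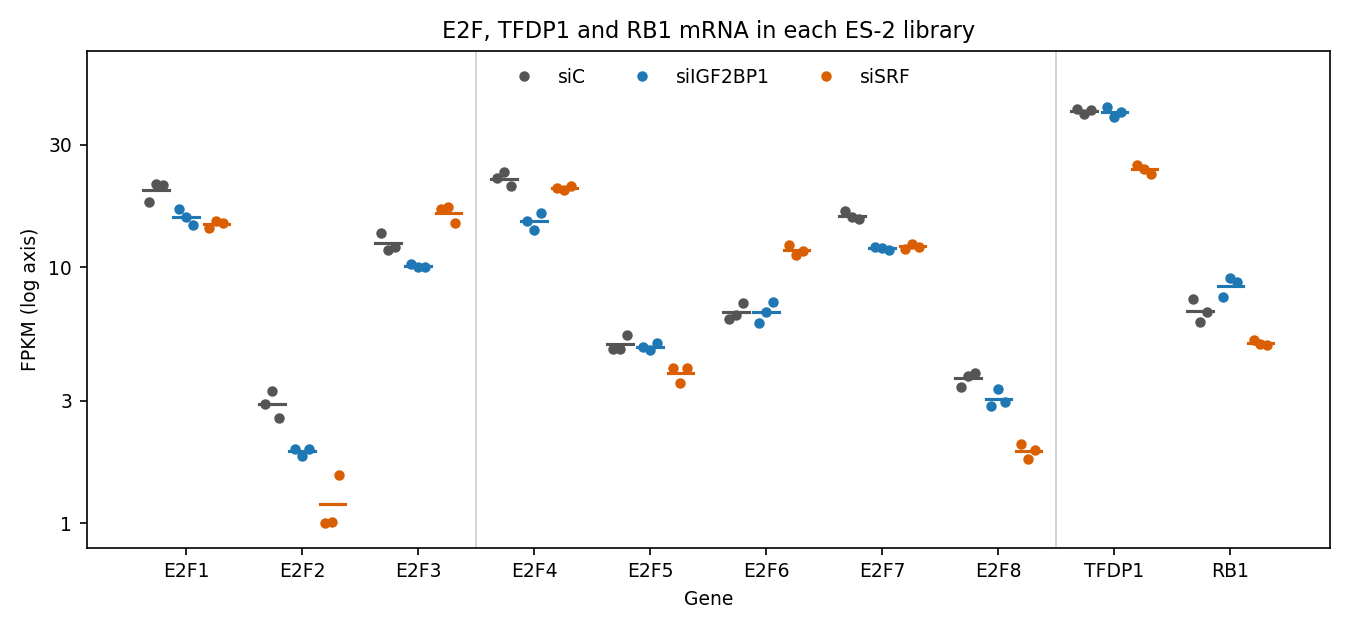
FPKM of each member (log axis) in the 9 ES-2 libraries, 3 per condition, with points for libraries and bars for group means; grey lines separate activating E2F genes, repressing E2F genes, and TFDP1 with RB1. TFDP1 (40.8 to 24.1 FPKM) and E2F8 (3.68 to 1.91 FPKM) lie lower and E2F6 (6.65 to 11.6 FPKM) higher in siSRF than in siC, whereas E2F4 is lowest in siIGF2BP1 (15.2 FPKM).

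Upon IGF2BP1 depletion, mRNAs of a pair of repressors fell: E2F4, the main E2F of resting cells, to 68.4% and E2F7 to 74.9% of siC. Called were genes with a limma adjusted p of at most 0.01, which took 3.57% of 22292 genes tested on the lower side and 3.55% on the higher side. Of the 10 members 2 were called lower and 0 higher by limma, against 5 lower and 1 higher at an unadjusted p under 0.05 and 4 lower and 0 higher by limma-voom on the recovered reads. The share over all genes was not taken at the unadjusted p or with limma-voom, so those counts are given without a background. The median log2 fold change was -0.28 over the members and 0.02 over all genes tested. Fewer cells in a phase of the cell cycle and less mRNA per cell cannot be told apart in bulk RNA.

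The activating genes were lower without passing the threshold. E2F1 was at 17.9, 21.1 and 20.9 FPKM in siC and 16.8, 15.7 and 14.6 in siIGF2BP1, with a log2 fold change of -0.34 (95% interval -0.56 to -0.13, adjusted p = 0.0451). E2F2 was at 2.91, 3.29 and 2.58 FPKM in siC and 1.94, 1.83 and 1.95 in siIGF2BP1 (-0.59, -0.91 to -0.27, adjusted p = 0.0297). E2F3 was at 13.6, 11.7 and 12.0 FPKM in siC and 10.3, 10.0 and 10.0 in siIGF2BP1 (-0.29, -0.47 to -0.12, adjusted p = 0.04). The knockdown libraries lay below all siC libraries for each of these genes, which gives an exact permutation p of 0.1, the smallest that 3 libraries against 3 allow.

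Among the repressors, the members behaved unequally. E2F4 was at 22.2, 23.6 and 20.7 FPKM in siC and 15.2, 14.0 and 16.2 in siIGF2BP1, groups that did not overlap (log2 fold change -0.54, SE 0.0755, adjusted p = 0.00572). E2F7 was at 16.5, 15.7 and 15.4 FPKM in siC and 12.0, 11.9 and 11.7 in siIGF2BP1, again without overlap (-0.41, SE 0.0497, adjusted p = 0.0036). E2F8, the other atypical E2F, was at 3.40, 3.77 and 3.87 FPKM in siC and 2.87, 3.34 and 2.97 in siIGF2BP1 (-0.26, adjusted p = 0.173). E2F5 and E2F6 overlapped between the conditions. The log2 fold change of E2F5 was -0.03 (95% interval -0.23 to 0.17) and that of E2F6 was 0.00 (-0.23 to 0.24). Neither E2F4 nor E2F7 passed the threshold once any of the 6 libraries was left out, with adjusted p between 0.0133 and 0.0255 for E2F4 and between 0.0113 and 0.0225 for E2F7, while the log2 fold changes remained between -0.59 and -0.49 and between -0.43 and -0.38.

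The regulators of E2F did not pass the threshold. RB1 was at 7.51, 6.08 and 6.70 FPKM in siC and 7.63, 9.04 and 8.71 in siIGF2BP1, so all knockdown libraries lay above the controls (log2 fold change 0.32, 95% interval 0.06 to 0.58, adjusted p = 0.0985). TFDP1 was at 42.3, 38.7 and 40.3 FPKM in siIGF2BP1 and overlapped with siC (-0.01, 95% interval -0.13 to 0.10).

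Upon SRF depletion, more of the family changed and in both directions. E2F2 fell to 40.4%, E2F8 to 52.0%, TFDP1 to 59.2%, E2F1 to 73.9% and E2F7 to 75.9% of siC, whereas E2F6 rose to 174.7%. Thus 5 of the 10 members were called lower and 1 higher, where 5.34% of 21857 genes tested were called lower and 6.85% higher. At an unadjusted p under 0.05, 7 members were lower and 2 higher, and limma-voom called 7 lower and 2 higher, again without a share over all genes. The median log2 fold change was -0.40 over the members and 0.01 over all genes tested.

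The activating genes went apart. E2F1 was at 14.2, 15.2 and 14.8 FPKM in siSRF, below every siC library (log2 fold change -0.43, SE 0.0768, adjusted p = 0.00989). E2F2 was at 1.00, 1.01 and 1.54 FPKM in siSRF against 2.91, 3.29 and 2.58 in siC (-1.26, SE 0.208, adjusted p = 0.00744), with the siSRF library of replicate 3 above the other two. E2F3 was at 16.9, 17.2 and 14.9 FPKM in siSRF, above all siC libraries (13.6, 11.7 and 12.0), but the difference did not pass the threshold (0.39, 95% interval 0.19 to 0.60, adjusted p = 0.0194). After removal of trends along GC content and gene length from each library, E2F1 was at -0.22 (adjusted p = 0.0298) and E2F2 at -1.08 (adjusted p = 0.0117), both no longer called. E2F1 passed only without siC replicate 1 among the 6 fits that left out a library (adjusted p = 0.00563, otherwise up to 0.0421), and E2F2 only without siSRF replicate 3 (adjusted p = 0.00713, otherwise up to 0.0317).

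Among the repressors, E2F6 rose and the atypical genes fell. E2F6 was at 6.26, 6.48 and 7.21 FPKM in siC and 12.2, 11.1 and 11.6 in siSRF, the only member called higher (log2 fold change 0.80, SE 0.076, adjusted p = 0.00116). E2F8 was at 3.40, 3.77 and 3.87 FPKM in siC and 2.03, 1.78 and 1.93 in siSRF (-0.91, SE 0.112, adjusted p = 0.00268). E2F7 was at 11.8, 12.3 and 12.0 FPKM in siSRF, close to its level in siIGF2BP1 (-0.40, SE 0.0493, adjusted p = 0.00274). None of the groups overlapped with siC for these genes. E2F4 was at 20.4, 20.0 and 20.8 FPKM in siSRF and overlapped with siC (-0.12, 95% interval -0.26 to 0.02), and its log2 fold change turned to 0.08 after that removal. E2F5 was at 4.80, 4.77 and 5.41 FPKM in siC and 4.04, 3.53 and 4.03 in siSRF (-0.36, adjusted p = 0.0412), and passed the threshold after it (-0.57, adjusted p = 0.00596). E2F6 remained called without any single library (adjusted p between 0.00303 and 0.00803). E2F7 passed in that series of fits only without siC replicate 3 (adjusted p = 0.00748, otherwise up to 0.016) and E2F8 only without siC replicate 1 (adjusted p = 0.0088, otherwise up to 0.0137).

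The DP partner fell as well. TFDP1 was at 41.3, 39.7 and 41.2 FPKM in siC and 25.1, 24.2 and 23.1 in siSRF, which do not overlap (log2 fold change -0.75, SE 0.0465, adjusted p = 3.9e-04). It was called without any single library, with adjusted p between 0.00231 and 0.00458. RB1 was at 5.18, 5.00 and 4.95 FPKM in siSRF, below all siC libraries, without passing the threshold (-0.41, 95% interval -0.64 to -0.19, adjusted p = 0.0222), and was called after the correction for GC content and gene length (-0.64, adjusted p = 0.00213).

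**Figure D2:**
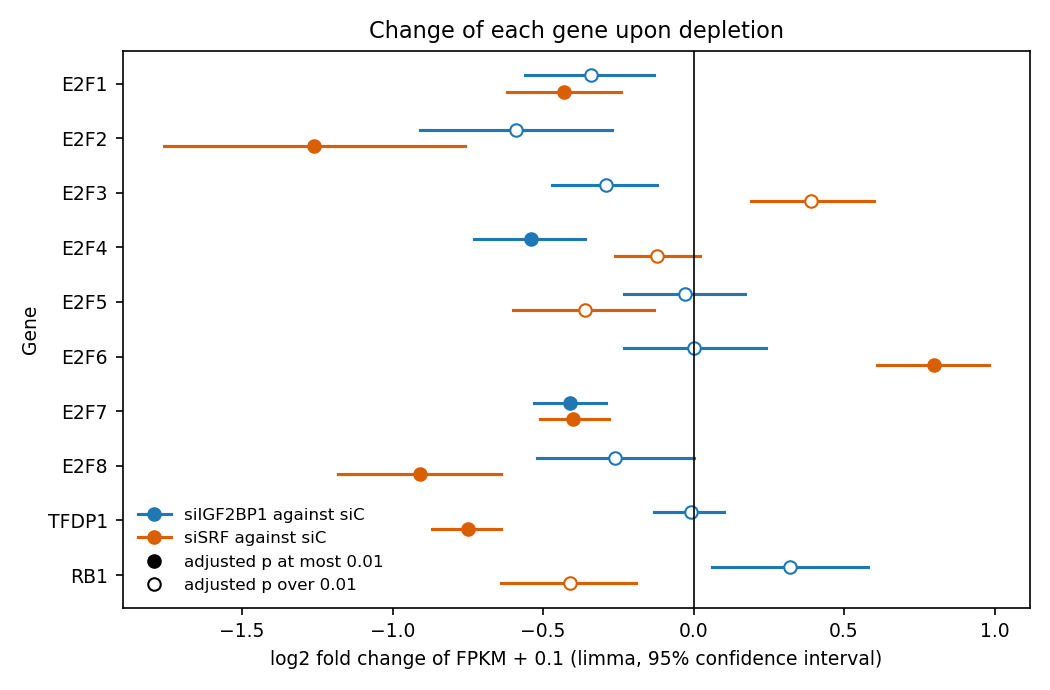
Log2 fold change of FPKM + 0.1 for each member in siIGF2BP1 (blue) and siSRF (orange) against siC, n = 3 libraries per condition, with 95% confidence intervals from limma; filled points have an adjusted p of at most 0.01. E2F7 is called lower in both (-0.41 and -0.40), E2F4 is called in siIGF2BP1 (-0.54), and E2F6 (0.80) and TFDP1 (-0.75) are called in siSRF.

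Both comparisons share the siC libraries, so the knockdowns were also compared directly, without siC. E2F3, E2F4 and E2F6 were lower and E2F8, RB1 and TFDP1 higher in siIGF2BP1 than in siSRF, thus 3 of 10 members were called in each direction, where 11.2% of 22311 genes tested were called lower and 8.82% higher. At an unadjusted p under 0.05, 3 members were lower and 5 higher, and limma-voom called 3 lower and 5 higher, for which no share over all genes was taken. TFDP1 and RB1 differed by 0.74 (95% interval 0.62 to 0.87, adjusted p = 1.5e-04) and 0.73 (0.54 to 0.93, adjusted p = 9.2e-04) on the log2 scale. RB1 was called in this comparison although its difference to siC had passed the threshold in neither knockdown, with siC between the knockdowns. E2F3 showed the same arrangement with opposite sign, at -0.68 between the knockdowns (-0.84 to -0.53, adjusted p = 5.1e-04). The difference was -0.80 for E2F6 (adjusted p = 7.9e-04), -0.43 for E2F4 (adjusted p = 0.00253) and 0.65 for E2F8 (adjusted p = 0.00715).

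The remaining members were not told apart between the knockdowns at this threshold. For E2F7 the interval of the difference was -0.12 to 0.09 and for E2F1 -0.07 to 0.24, both with overlapping libraries. E2F2 (0.67, adjusted p = 0.0488) and E2F5 (0.33, adjusted p = 0.0271) were higher in every siIGF2BP1 library than in every siSRF library without passing the threshold. E2F3, E2F6, RB1 and TFDP1 remained called without any single library, E2F8 was lost without any of the 6 (adjusted p between 0.018 and 0.0265), and E2F4 was called only without siIGF2BP1 replicate 2 or 3 (adjusted p = 0.00493 and 0.00381, otherwise up to 0.0124).

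To compare activating with repressing E2F genes, FPKM were summed per library over E2F1 to E2F3 and over E2F4 to E2F8. Activating E2F mRNA amounted to 34.4, 36.1 and 35.4 FPKM in siC, 29.0, 27.5 and 26.6 in siIGF2BP1 and 32.0, 33.4 and 31.3 in siSRF. Repressing E2F mRNA amounted to 53.2, 54.3 and 52.6 FPKM in siC, 41.0, 40.7 and 43.2 in siIGF2BP1 and 50.5, 48.7 and 50.3 in siSRF. Both sums were therefore lowest in siIGF2BP1, with no overlap with the other conditions. The log2 ratio of activating to repressing mRNA was -0.60 ± 0.030 in siC, -0.59 ± 0.104 in siIGF2BP1 and -0.63 ± 0.075 in siSRF (SD, n = 3), and the 3 conditions overlapped.

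The make-up of the sums nevertheless differed between conditions. The ratio of E2F1 to E2F3 was 1.62 ± 0.268 in siC, 1.55 ± 0.091 in siIGF2BP1 and 0.907 ± 0.0798 in siSRF, where all libraries lay between 0.841 and 0.995. Within the repressing sum, the ratio of E2F4 to E2F6 was 3.35 ± 0.420 in siC, 2.28 ± 0.216 in siIGF2BP1 and 1.76 ± 0.0778 in siSRF, and the 3 conditions did not overlap. E2F4 contributed 25.0% ± 1.33 of all E2F mRNA in siC, 21.9% ± 1.33 in siIGF2BP1 and 24.9% ± 0.578 in siSRF. E2F6 contributed 7.5% ± 0.597 of all E2F mRNA in siC, 9.61% ± 0.924 in siIGF2BP1 and 14.1% ± 0.661 in siSRF. The ratio of TFDP1 to the sum of the 8 E2F mRNAs was 0.460 ± 0.0183 in siC, 0.583 ± 0.0186 in siIGF2BP1 and 0.294 ± 0.0111 in siSRF. This ratio was higher in every siIGF2BP1 library and lower in every siSRF library than in siC. Without E2F3 in the activating sum, the log2 ratio of activating to repressing mRNA differed by -0.42 between siSRF and siC.

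**Figure D3:**
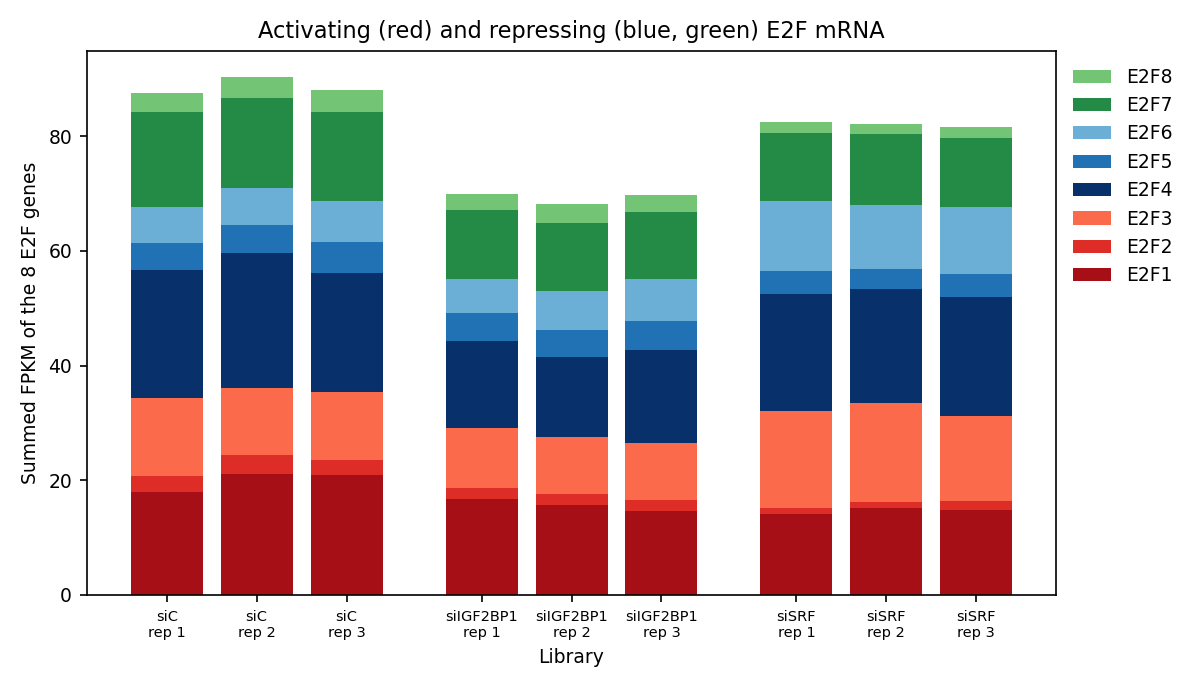
FPKM of the 8 E2F genes stacked per library, with activating genes in red, canonical repressors in blue and atypical repressors in green; each bar is 1 library. The siIGF2BP1 bars are the lowest (activating 26.6 to 29.0 and repressing 40.7 to 43.2 FPKM), and the E2F6 and E2F3 layers are thicker in siSRF.

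The genes around the family were taken from 7 lists with 72 genes, of which 68 passed the filter. In siIGF2BP1 5 of these were called lower and 3 higher, where 3.57% and 3.55% of all genes tested were called. In siSRF 14 were called lower and 4 higher, where 5.34% and 6.85% of all genes tested were called, so the higher calls among the listed genes were near the share over all genes in both knockdowns. The median log2 fold changes over the lists were -0.01 and -0.15, against 0.02 and 0.01 over all genes tested. The largest list was that of E2F targets of G1/S and DNA synthesis, with 29 genes, all tested.

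In siSRF 12 of the 29 E2F targets were called lower and 0 higher (median log2 fold change -0.24), beside 5.34% and 6.85% of all genes tested. At an unadjusted p under 0.05, 18 were lower and 0 higher, and limma-voom called 16 lower and 0 higher, with no share over all genes taken for these counts. The smallest p-values belonged to the licensing factor CDT1 (20.0 to 12.5 FPKM, -0.67, adjusted p = 5.6e-04), the sliding clamp PCNA (144 to 97.1 FPKM, -0.57, adjusted p = 0.00101), the thymidine kinase TK1 (51.0 to 31.7 FPKM, -0.68, adjusted p = 0.00136) and the flap endonuclease FEN1 (69.3 to 47.9 FPKM, -0.53, adjusted p = 0.00163). With a library left out, between 2 (without siSRF replicate 2) and 8 (without siC replicate 3) of the 29 were called lower. In siIGF2BP1 3 of the 29 were called lower and 1 higher (median -0.13), beside 3.57% and 3.55% of all genes tested. At an unadjusted p under 0.05, 13 were lower and 3 higher there, and limma-voom called 11 lower and 3 higher. The gap between the knockdowns in the number of lower targets was smaller by both of these counts. How many of all genes pass them in each knockdown was not determined, so the gaps cannot be set against a background. Called by limma on FPKM were the ribonucleotide reductase subunit RRM2 (-0.49, adjusted p = 0.0016), the maintenance methylation factor UHRF1 (-0.46, adjusted p = 0.00408) and the helicase subunit MCM7 (-0.38, adjusted p = 0.0093) on the lower side and another helicase subunit, MCM4 (0.42, adjusted p = 0.00763), on the higher side. Without siIGF2BP1 replicate 3, 0 of the 29 were called lower and 0 higher. Between the knockdowns, 7 of the 29 targets were called higher and 3 lower in siIGF2BP1, beside 8.82% and 11.2% of all genes tested, so the lower calls were near the share over all genes. The smallest p belonged to the helicase subunit MCM6, which was at 19.8, 23.4 and 25.2 FPKM in siC, 30.1, 30.7 and 30.2 in siIGF2BP1 and 13.0, 13.6 and 12.6 in siSRF (difference 1.21, adjusted p = 1.8e-05).

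Kinases and inhibitors upstream of RB1 changed gene by gene. Over all genes tested, 3.57% were called lower and 3.55% higher in siIGF2BP1, and 5.34% and 6.85% in siSRF. CCNE1, a cyclin E that activates CDK2, was at 6.83, 6.12 and 8.95 FPKM in siC and 3.43, 3.39 and 3.10 in siIGF2BP1 (-1.10, adjusted p = 0.00522). It was the only one called there of 8 tested genes, which were G1 cyclins, kinases and the phosphatase gene CDC25A. In siSRF it was at 4.34, 4.65 and 4.57 FPKM, also below all siC libraries (-0.66, adjusted p = 0.0198), and it was lower in siIGF2BP1 than in siSRF (-0.44, adjusted p = 0.00807). The other cyclin E gene, CCNE2, lay higher in siIGF2BP1 without passing the threshold (8.39 to 11.4 FPKM, 0.44, adjusted p = 0.0589). It was at 6.61 FPKM in siSRF (-0.33, adjusted p = 0.059) and was called higher in siIGF2BP1 than in siSRF (0.78, adjusted p = 0.00121). In siSRF CDK6 (24.3 to 37.6 FPKM, 0.63, adjusted p = 3.9e-04) and CDK4 (65.4 to 79.1 FPKM, 0.27, adjusted p = 0.00719), which phosphorylate RB1 with D-type cyclins, were called higher. Among 6 tested CDK inhibitors, CDKN1A (p21) was at 2.48, 2.65 and 2.77 FPKM in siC and 1.41, 1.17 and 0.929 in siIGF2BP1 (-1.12, adjusted p = 0.00997). In siSRF CDKN1A was at 1.10, 1.37 and 0.623 FPKM, below all siC libraries as well (-1.33, adjusted p = 0.017), and the knockdowns overlapped (difference 0.21, 95% interval -0.57 to 0.99, adjusted p = 0.665). CDKN2D fell in siSRF (4.66 to 2.47 FPKM, -0.89, adjusted p = 0.00649) and was at 3.90 FPKM in siIGF2BP1, with a difference between the knockdowns of 0.62 (adjusted p = 0.0546). The pocket protein RBL2 (p130) rose in siIGF2BP1 (12.1 to 16.6 FPKM, 0.45, adjusted p = 0.00868), the only one of 3 tested partners called against siC in either knockdown. Another partner, RBL1, was at 14.4 FPKM in siC, 14.6 in siIGF2BP1 and 10.9 in siSRF. Both RBL1 (0.41, adjusted p = 0.00189) and RBL2 (0.35, adjusted p = 0.00692) were called higher in siIGF2BP1 than in siSRF.

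MYBL2 (B-MYB), an E2F target that turns the MuvB complex into an activator, was at 35.0, 37.9 and 34.8 FPKM in siC, 33.3, 31.6 and 27.0 in siIGF2BP1 and 17.6, 19.5 and 19.5 in siSRF. It was the only one of 7 MuvB genes called against siC, and in siSRF alone (-0.92, adjusted p = 4.6e-04), where its libraries lay below all others and below siIGF2BP1 by the direct test (0.69, adjusted p = 0.00176). Over all genes tested, 5.34% were called lower and 6.85% higher in siSRF, and 3.57% and 3.55% in siIGF2BP1. Of the 9 genes of the complex through which E2F6 represses, RNF2, a ubiquitin ligase for histone H2A, was called higher in siSRF (5.78 to 7.60 FPKM, 0.39, adjusted p = 0.00655), and the median of the list was 0.35. RNF2 was at 8.17 FPKM in siIGF2BP1, also above all siC libraries (0.49, adjusted p = 0.0142), and the knockdowns overlapped (difference 0.10, 95% interval -0.09 to 0.29, adjusted p = 0.412). Of 6 tested E2F1 targets in cell death, the BH3-only gene PMAIP1 rose in siSRF (23.6 to 41.0 FPKM, 0.80, adjusted p = 5.5e-04) and was lower in siIGF2BP1 than in siSRF by the direct test (-0.66, adjusted p = 2.6e-04). Between the knockdowns the list as a whole went the other way, with a median of 0.64. Against siC its median was 0.47 in siIGF2BP1 and 0.05 in siSRF. BBC3 (1.07, adjusted p = 0.0159) and BCL2L11 (1.19, adjusted p = 0.0264) lay higher in siIGF2BP1 than in siSRF without passing the threshold.

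**Figure D4:**
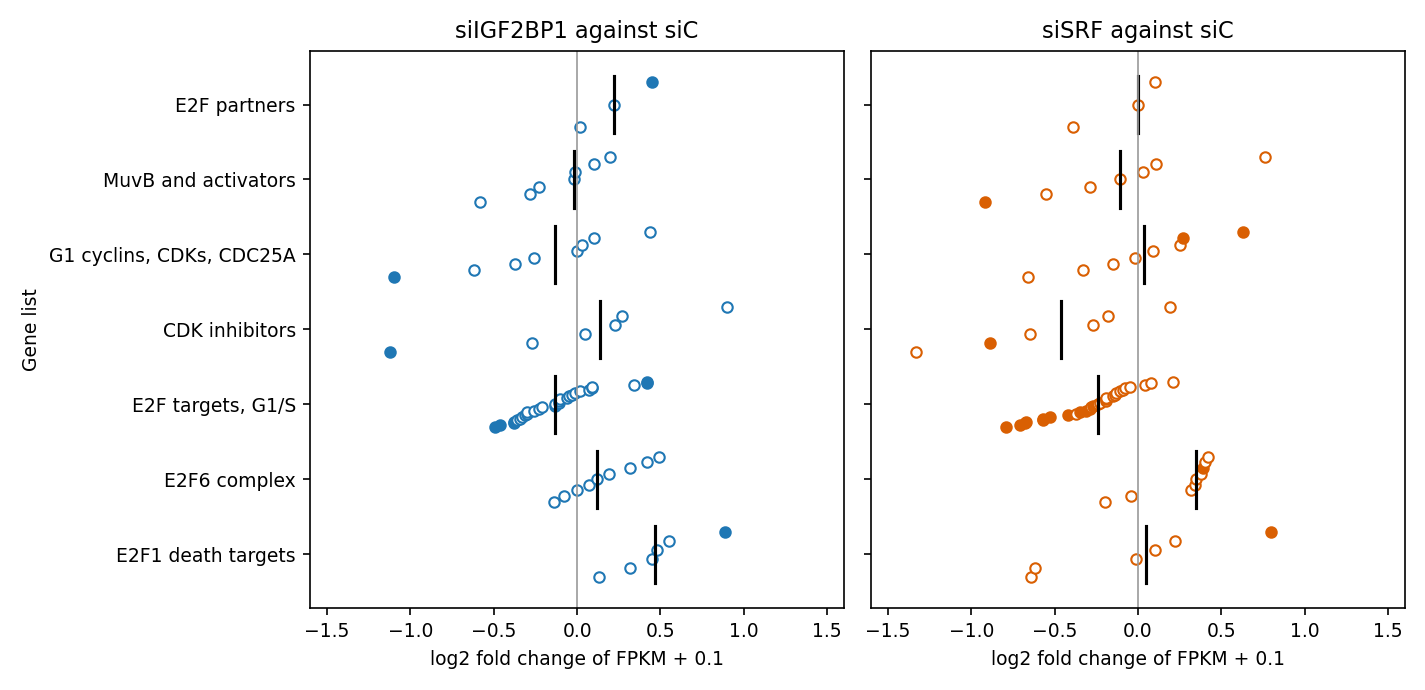
Log2 fold change of FPKM + 0.1 of the genes of the 7 lists in siIGF2BP1 (left) and siSRF (right) against siC; each point is a gene, filled where the adjusted p is at most 0.01, and black lines are list medians. In siSRF 12 of 29 E2F targets are called lower with a median of -0.24, and in siIGF2BP1 3 are called lower and 1 higher with a median of -0.13.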

How the data were processed

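Total RNA of ES-2 cells was extracted with TRIZOL, depleted of rRNA with RiboCop and sequenced on an Illumina NextSeq after library generation with a directional NEBNext kit. Per the methods and labels, the authors clipped reads with Cutadapt 1.14, aligned them to hg38 with HISAT2 2.1.0 and SAMtools 1.5, counted them on Ensembl 89 genes with featureCounts 1.5.3 (the strand setting was not given in the sources used here) and normalized them by TMM in edgeR 3.18.1. The authors deposited FPKM values per library in 2 tables with identical siC columns. The tables also hold the authors' log2 fold changes, p-values and FDR, which were not used. FPKM times gene length and the scaled library size gave whole reads for 100% of values (tolerance 1e-06 reads).

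Conditions were taken from the sample labels. Genes whose mean over the 6 libraries compared reached 0.1 FPKM were fitted on log2(FPKM + 0.1) with limma 3.58.1 (trended eBayes) in R 4.3.3. Two-sided p-values were adjusted for all fitted genes by Benjamini-Hochberg, and calls were made up to an adjusted p of 0.01. Fold changes are on the log2(FPKM + 0.1) scale, which understates changes of low genes. Single members were also given a two-sided exact permutation test. The sources do not say whether libraries came from separate cultures, so p-values measure the spread between libraries, which may be technical. Deviations of same-numbered libraries from their group means had correlations between -0.0438 and 0.0186 over 14168 genes, so replicate numbers were not treated as pairs.

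Named were all members, both targeted genes and, for E2F1, E2F7, E2F8 and RB1, the 3 protein-coding genes with the most similar profile. From each list, up to 4 called genes with the smallest p were named per comparison against siC. Between the knockdowns only some of the called list genes were named. A gene that the rule on lists would name is not reported here. MCM6 values per library were shown as the gene with the smallest p between the knockdowns. The members and lists were chosen with earlier results of these data known. Promoters are from RefSeq (GRCh38.p14); gene starts are from GENCODE 44 on GRCh38, a later annotation than the one used for counting.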

Additional observations from a re-analysis of the deposited data

Results flagged for a closer look

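The effects of the knockdowns differed by the direct test between siIGF2BP1 and siSRF (limma, log2 of siIGF2BP1 minus siSRF, 3 libraries each, no overlap between the groups for these genes) for 6 of the 10 members. Over all genes tested, 11.2% were called lower and 8.82% higher, and the share of genes without overlap was not taken. The difference was -0.68 for E2F3 (adjusted p = 5.1e-04), -0.43 for E2F4 (adjusted p = 0.00253) and -0.80 for E2F6 (adjusted p = 7.9e-04). It was 0.65 for E2F8 (adjusted p = 0.00715), 0.73 for RB1 (adjusted p = 9.2e-04) and 0.74 for TFDP1 (adjusted p = 1.5e-04). E2F4 was the gene of this set that was called in siIGF2BP1 against siC, whereas E2F6, E2F8 and TFDP1 were called in siSRF against siC, and E2F3 and RB1 in neither.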

How the results depend on the processing

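Depth limits the least abundant members most: E2F2 had 39 to 122 reads and E2F8 59 to 116 reads per library. Called members were 2, 6 and 6 in siIGF2BP1 against siC, siSRF against siC and siIGF2BP1 against siSRF. Over all genes tested, 3.57%, 5.34% and 11.2% were called lower and 3.55%, 6.85% and 8.82% higher in that order. Shares over all genes under the alternatives below were not taken. In siIGF2BP1 against siC the called members were 4 with limma-voom and 5 at a threshold of 0.05. In siSRF against siC limma-voom called 7 lower and 2 higher, and between the knockdowns 3 lower and 5 higher. A threshold of 0.05 added E2F3, E2F5 and RB1 in siSRF against siC, and E2F2 and E2F5 between the knockdowns. With a replicate block 0, 1 and 3 members were called in the order above. Same-numbered libraries did not deviate together, and 1 of 9 pairs correlated best with its own number. With a library left out, 0 to 0, 2 to 4 and 4 to 5 members were called. Listed pathway genes called lower (5, 14 and 11) or higher (3, 4 and 16) moved as follows. In siIGF2BP1 they were 3 lower without a filter, 16 lower and 9 higher with limma-voom, 0 and 0 with the block, 11 and 6 with all 9 libraries, 13 and 7 at 0.05, and 0 to 2 lower and 1 to 2 higher without a library. In siSRF they were 7 higher with a minimum mean of 1 FPKM, 24 lower and 9 higher with limma-voom, 4 and 2 with the block, 23 and 9 at 0.05, and 3 to 9 lower and 2 to 4 higher without a library. Between the knockdowns they were 25 higher with limma-voom, 3 lower and 7 higher with the block, 28 higher at 0.05, and 4 to 7 lower and 7 to 13 higher without a library.

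Signs turned only for members near 0. In siIGF2BP1 against siC, E2F6 was -0.01 with median-ratio rescaling, -0.02 after removal of GC and length trends (an alternative chosen after seeing the data) and -0.06 to 0.07 without a library; E2F5 was -0.06 to 0.03 and TFDP1 -0.04 to 0.02 without a library. After the same removal, E2F4 was 0.08 in siSRF against siC, and E2F1 was -0.00489 and E2F7 0.04 between the knockdowns. The difference in the log2 ratio of activating to repressing mRNA between siSRF and siC (-0.03) was -0.42 without E2F3 and -0.22 without E2F7 and E2F8. Where no value shows a cause, the cause was not tested. Over the members and both targeted genes, 496 single-gene log2 fold changes under an alternative stayed on their side of the threshold with their sign, 58 fell short of it, 11 newly passed it and 11 turned sign.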

Other observations

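The genes with the profile most similar to that of a member over the 9 libraries were taken from 10380 protein-coding genes of at least 1 FPKM, by Pearson's r of log2(FPKM + 0.1), as a description over libraries that fall into 3 conditions. E2F1 was closest to SMPD4 (r = 0.983), the DNA helicase gene RECQL4 (0.970) and the spindle checkpoint gene MAD1L1 (0.970). E2F7 was closest to the replication-dependent histone genes HIST1H2BH (r = 0.987; 130.0 FPKM in siC, 56.3 in siIGF2BP1 and 58.3 in siSRF) and HIST1H2BF (0.982) and to the lysosomal glucuronidase gene GUSB (0.979). H2B genes are close copies of each other, and the split of reads between them is uncertain. E2F8 was closest to ANK2 (r = 0.990), ENOSF1 (0.988; 18.3, 15.7 and 10.8 FPKM) and SLC43A1 (0.988). RB1 was closest to ERAP2 (r = 0.989), GCA (0.987) and C1GALT1C1 (0.987; 15.5, 22.6 and 7.90 FPKM).

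Several genes of the lists lay outside the call against siC but with every siIGF2BP1 library on one side of siC. FOXM1, a mitotic activator that works with MuvB, was at 18.3 FPKM in siC, 12.2 in siIGF2BP1 (adjusted p = 0.0356) and 12.4 in siSRF (adjusted p = 0.0214). CDC25A, the phosphatase that activates CDK2, was at 15.8 FPKM in siC, 10.3 in siIGF2BP1 (adjusted p = 0.0238) and 18.8 in siSRF (adjusted p = 0.0356), and differed between the knockdowns (-0.87, adjusted p = 0.00212). CDKN2B (p15) was at 2.08 FPKM in siC, 3.89 in siIGF2BP1 and 1.68 in siSRF, and differed between the knockdowns as well (1.16, adjusted p = 9.4e-04). These genes were chosen after their values were seen.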
